A study of Mus musculus with 2 samples.

Results

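The mitosis and spindle genes described here are 40 of the 32285 genes in the deposited matrices. They were chosen by name as genes whose products build the mitotic spindle, hold and move chromosomes, or time entry into and exit from mitosis. The rule uses no measured value, but it was written with earlier results of these data known. All 40 were found by their symbol, each symbol matched 1 row, and the mouse annotation lists all 40 as protein coding, on 17 chromosomes. Their levels are given in 3 classes of cells from tumours grown in C57BL/6 mice from MC38, a mouse colon carcinoma line. The RSPO3-OE library came from tumour tissue of MC38 cells of genotype MC38-RSPO3-OE, which overexpress RSPO3, a secreted protein that strengthens Wnt signalling. The Ctrl library came from tumour tissue of genotype MC38-Ctrl. With 1 library per group nothing below could be checked against replicates, no test was run, and the 95% intervals cover counting error only. Intervals on UMI counts treat the UMIs as independent and leave out the spread between cells. The labels call the tissue a xenograft although the line and the host are both mouse. They do not give the number of mice, the implantation site, the time of harvest, whether MC38-RSPO3-OE is a clone or how RSPO3 was expressed.

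Most mitosis genes are transcribed in the later part of the cell cycle and are nearly silent in resting cells. Cdk1 bound to cyclin B starts mitosis, the Aurora and Polo kinases build the spindle and correct its attachments, and the anaphase-promoting complex with Cdc20 ends it by marking cyclins and securin for destruction. The summed RNA of such genes is widely used to find dividing cells, which in a tumour include cancer cells, activated T cells and, to a smaller extent, macrophages that divide in the tissue.

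Most of these genes are known to share a promoter layout in which a CHR element, spelled TTTGAA or TTTAAA, near the start of transcription is bound by MuvB complexes and CCAAT boxes upstream are bound by NF-Y. RefSeq promoter windows of 300 bases (250 before to 50 after the start, build GRCm38.p6) were given for 32 of the 40 genes, as 33 windows because Prc1 had 2. Ccna2, Aurkb, Cdc25c, Incenp, Kif20a, Tpx2, Pbk and Smc4 had no window. On either strand, TTTGAA was found in 26 of the 33 windows (78.8%), against 17.9% of all 32851 windows. TTTAAA was found in 8 (24.2%), against 13.2% of all. CCAAT was found in 28 (84.8%), against 37.4%, and CCAAT together with TTTGAA or TTTAAA in 26 (78.8%), against 10.7%. Of other motifs searched on both strands, GGGCGG, bound by Sp1, was in 84.8% of the members' windows and 35.7% of all, and the E2F-type letters TTGGCGC were in 12.1% and 2.45%, and TTCGCGC in 6.06% and 1.59%. The motifs can overlap, as in Cdca8, whose letters TTTGAATTGG hold TTTGAA and ATTGG, the reverse of CCAAT. Neither form of the CHR letters was found in Bub1, Nek2, Nusap1 and Tacc3. These matches are descriptions of letters, not of binding.

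Windows from 130 bases before to 30 bases after the start are shown for 8 members to make the layout visible. They come from the cyclin and Cdk1, checkpoint and anaphase-promoting complex, centromere, kinesin, cytokinesis and chromosome structure genes described below. The groups of mitotic kinases, chromosomal passenger complex and spindle assembly genes are not represented. All 8 hold both CCAAT and CHR letters, which not all members do. Capitals mark the CHR letters TTTGAA, which read as TTCAAA from the reverse strand, the form TTTAAA, which reads the same on both strands, and CCAAT, which reads as ATTGG from the reverse strand.
Ccnb2: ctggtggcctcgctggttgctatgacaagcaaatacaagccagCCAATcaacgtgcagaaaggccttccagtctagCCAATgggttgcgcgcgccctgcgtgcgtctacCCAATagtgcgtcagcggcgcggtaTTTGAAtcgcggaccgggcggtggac
Cdc20: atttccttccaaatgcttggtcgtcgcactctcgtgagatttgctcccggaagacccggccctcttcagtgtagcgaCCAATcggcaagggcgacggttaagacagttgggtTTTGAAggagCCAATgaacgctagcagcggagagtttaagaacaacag
Cdk1: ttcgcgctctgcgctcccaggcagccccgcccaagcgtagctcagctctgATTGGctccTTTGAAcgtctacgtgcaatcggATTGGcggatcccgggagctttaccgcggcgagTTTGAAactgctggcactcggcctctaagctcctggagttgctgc
Cenpa: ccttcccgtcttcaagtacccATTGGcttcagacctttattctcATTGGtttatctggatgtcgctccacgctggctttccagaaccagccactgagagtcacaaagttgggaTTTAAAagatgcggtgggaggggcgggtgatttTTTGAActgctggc
Kif23: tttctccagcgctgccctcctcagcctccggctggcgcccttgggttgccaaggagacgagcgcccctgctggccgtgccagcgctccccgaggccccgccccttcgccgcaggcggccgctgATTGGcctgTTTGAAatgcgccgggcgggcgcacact
Racgap1: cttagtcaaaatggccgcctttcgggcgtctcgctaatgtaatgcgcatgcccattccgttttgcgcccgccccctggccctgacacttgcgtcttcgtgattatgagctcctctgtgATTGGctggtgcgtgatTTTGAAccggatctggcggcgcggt
Top2a: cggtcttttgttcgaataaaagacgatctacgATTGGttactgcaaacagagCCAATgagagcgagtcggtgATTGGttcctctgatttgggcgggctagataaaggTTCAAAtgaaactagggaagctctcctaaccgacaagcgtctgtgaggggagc
Ube2c: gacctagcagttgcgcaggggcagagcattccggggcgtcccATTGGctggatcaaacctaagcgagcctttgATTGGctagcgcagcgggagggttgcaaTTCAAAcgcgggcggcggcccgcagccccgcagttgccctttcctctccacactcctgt
The Ccnb2 window is chr9:70421525-70421684 on the minus strand, that of Cdc20 chr4:118437314-118437473 on the minus strand and that of Cdk1 chr10:69352883-69353042 on the minus strand. The Cenpa window is chr5:30666756-30666915 on the plus strand, and that of Kif23 is chr9:61946770-61946929 on the minus strand. Racgap1 is shown from chr15:99651627-99651786 on the minus strand, Top2a from chr11:99024160-99024319 on the minus strand and Ube2c from chr2:164769799-164769958 on the plus strand. In Ccnb2, 3 CCAAT boxes start at -87, -54 and -21 from the start of transcription and TTTGAA begins at 5, while in Cdc20 and Cdk1 TTTGAA begins at -18 and -15. Cenpa carries TTTAAA from -17 and TTTGAA from 17. Kif23 and Racgap1 each hold a single CCAAT box, on the reverse strand, within 12 bases before the start and TTTGAA just after it.

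The libraries held 7314 barcodes with 155615189 UMIs in RSPO3-OE and 7301 barcodes with 143881763 UMIs in Ctrl, and shared 7 barcode sequences. After barcodes of low quality and marked doublets (171 in RSPO3-OE, 95 in Ctrl) were left out, 6993 and 6895 cells were kept. Rspo3, the overexpressed gene, stood at 94.8 CPM, that is UMIs per 1000000 UMIs, over the kept RSPO3-OE cells, with 14199 UMIs, and had 2 UMIs in Ctrl. Levels below are CPM of the class, counted at transcript 3′ ends and not scaled to length, so they are not compared between genes. Cells were put in a class by a few defining genes. Tumour cells had no UMI of Ptprc, the leukocyte gene that encodes CD45, and at least 1 of Hmga2 (4229 cells in RSPO3-OE, 4323 in Ctrl). Macrophages had at least 20 UMIs of the complement genes C1qa, C1qb and C1qc (1214 and 1176), and CD8 T cells at least 2 of Cd8a and Cd8b1 and at least 1 of Cd3e and Cd3g (344 and 180). Of the kept cells, 25 in RSPO3-OE and 7 in Ctrl met both the tumour and the macrophage rule, and 5 in each met both the macrophage and the CD8 T rule.

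Markers that the class rules did not use bore out the macrophage and CD8 T labels and bore out the tumour label in part. Macrophages held Csf1r at 494 and 507 CPM in RSPO3-OE and Ctrl and CD8 T cells held Trac at 545 and 589 CPM. In the tumour class Krt8, an epithelial keratin, stood at 538 and 87.5 CPM, whereas Krt18 was at 0.448 and 0.349 CPM. Epcam, an epithelial adhesion gene, had 0 UMIs in both libraries. Hmga1 was at 124 and 153 CPM in the tumour class against 18.7 and 15.8 CPM in macrophages. Igf2bp2 was at 48.1 and 43.1 CPM against 5.21 and 2.88 CPM, and Igf2bp3 at 1.13 and 1.65 CPM against 1.63 and 1.19 CPM. The 4 Y-linked genes summed to 0.396 and 0.226 CPM in the tumour class against 149 and 95.2 CPM in macrophages. Fibroblast markers (Lum, Pdgfra, Dcn and Col3a1) summed to 3546 and 2344 CPM in the tumour class. The class is therefore best read as Ptprc-negative, Hmga2-positive cells, and is called tumour cells in that sense. Genes that respond to tissue handling, such as Fos and Jun, summed to 9964 and 5311 CPM in tumour cells, 6766 and 4367 CPM in macrophages and 2341 and 2563 CPM in CD8 T cells. Their part in the results below was not tested.

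The members were most abundant in tumour cells, lower in CD8 T cells and lowest in macrophages, and the 2 libraries gave the same order. Together they made up 4525 CPM (4513 to 4537) in RSPO3-OE tumour cells and 4568 CPM (4555 to 4581) in Ctrl tumour cells. CD8 T cells held 3099 CPM (3036 to 3162) and 3149 CPM (3069 to 3230). Macrophages held 1476 CPM (1457 to 1496) and, in the Ctrl library, 1995 CPM (1973 to 2017). Neutrophils, which do not divide, served as a rough background. Their 56 cells in RSPO3-OE held 30 member UMIs, or 283 CPM (191 to 404), and their 5 cells in Ctrl held 8, or 235 CPM (101 to 463). The 5 Ctrl cells also held Dcn at 2643 CPM, from 90 UMIs, against 1686 CPM in Ctrl tumour cells. In RSPO3-OE neutrophils Dcn stood at 56.6 CPM. Whether the neutrophil values reflect free RNA was not tested. At least 1 member UMI was present in 97.2% and 95.1% of tumour cells, 89.9% and 91.1% of macrophages, 93.3% and 95% of CD8 T cells, and 39.3% (26.5% to 53.2%) of the 56 neutrophils. Median depths were 25376 and 21437 UMIs per tumour cell, 11920.5 and 12676.5 per macrophage, 7118 and 7469 per CD8 T cell, and 1618 per RSPO3-OE neutrophil, so these shares are not at 1 depth.

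**Figure D1:**
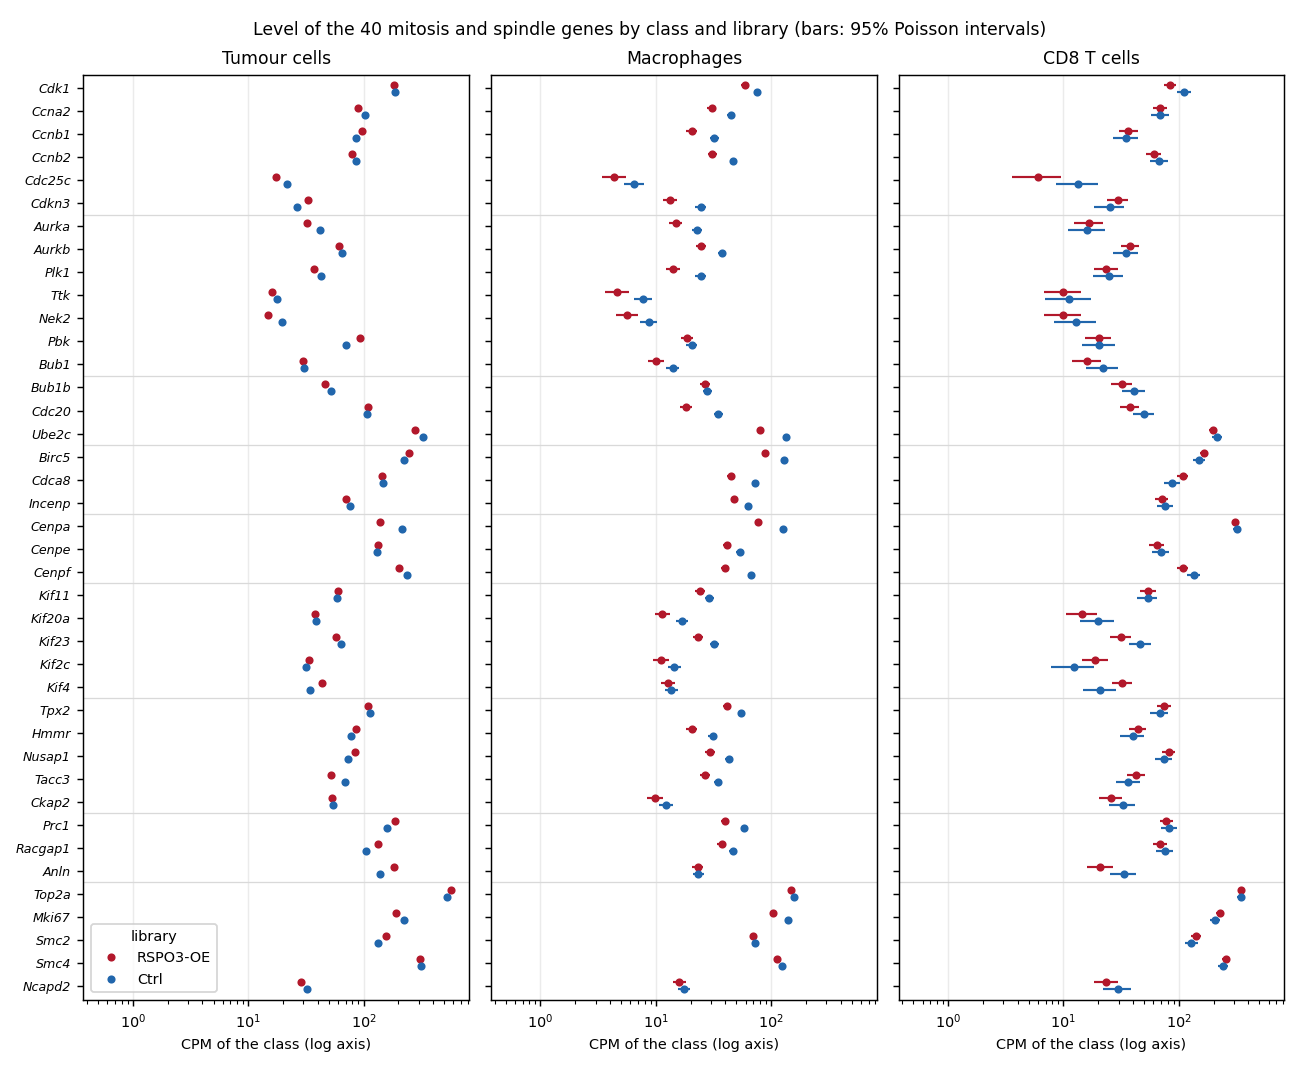
Level of each of the 40 genes in CPM of the class (log axis) in tumour cells, macrophages and CD8 T cells, with RSPO3-OE in red, Ctrl in blue and bars for 95% Poisson intervals. Genes are ordered by role, with lines between role groups. In macrophages the red points lie to the left of the blue ones for all 40 genes, while in the other classes they lie on either side.

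To put cells at 1 depth, each was thinned to 2000 UMIs and the member UMIs were summed. A sum of at least 5 marked a high-sum cell, which is a range of a score and not a cell type. In tumour cells 1788 of 4227 (42.3%, 40.8 to 43.8) were high-sum for RSPO3-OE, against 1814 of 4320 (42.0%, 40.5 to 43.5) for Ctrl. CD8 T cells gave 80 of 341 (23.5%, 19.1 to 28.3) and 36 of 180 (20%, 14.4 to 26.6), with intervals that overlap widely. Macrophages gave 162 of 1204 (13.5%, 11.6 to 15.5) for RSPO3-OE, against 227 of 1167 (19.5%, 17.2 to 21.8) for Ctrl, a log2 ratio of -0.53 (-0.92 to -0.15). None of the 17 RSPO3-OE neutrophils deep enough to thin was high-sum, which allows a share of up to 17.6% by the limit of 3 counts and 19.5% by the exact upper bound. At the threshold lay 15 RSPO3-OE and 18 Ctrl macrophages with a sum of 4 and the same numbers with a sum of 5. Tumour cells gave 114 and 147 at a sum of 4 and 101 and 130 at a sum of 5. CD8 T cells gave 11 and 8 at a sum of 4 and 8 and 1 at a sum of 5, beside 80 and 36 high-sum cells. A sum of 0 was found in 31.3% and 29.2% of tumour cells, 49.5% and 46.1% of macrophages, and 23.2% and 28.3% of CD8 T cells.

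**Figure D2:**
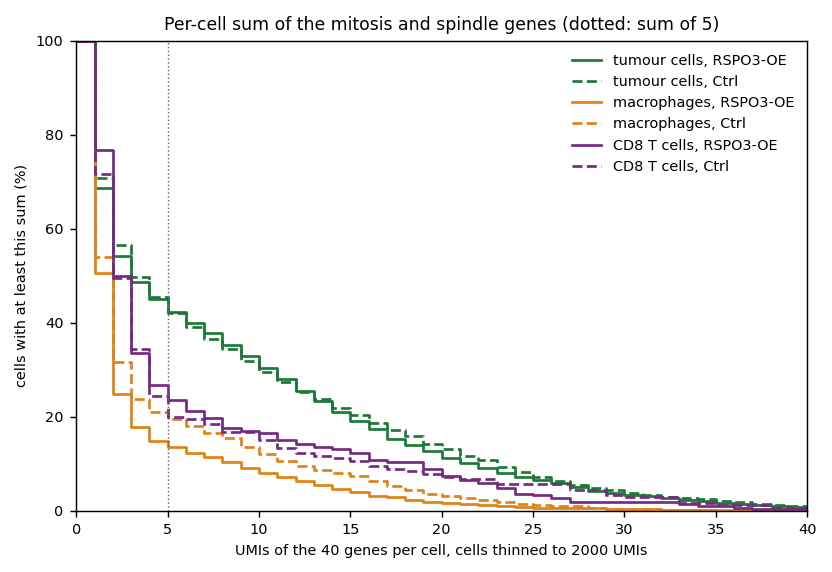
Share of cells (%) with at least a given number of UMIs of the 40 genes after thinning to 2000 UMIs per cell, by class and library, with a dotted line at a sum of 5. The tumour curves of both libraries nearly coincide (42.3% and 42.0% at the line), whereas the macrophage curve of RSPO3-OE (13.5%) runs below that of Ctrl (19.5%).

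Most member UMIs came from the high-sum cells, which held 93.5% and 92.1% of them in tumour cells, 78.4% and 85.8% in macrophages, and 85.6% and 83.8% in CD8 T cells. Within high-sum cells the summed level was 7866 and 7937 CPM in tumour cells, 7689 and 7740 CPM in CD8 T cells, and 6089 and 6565 CPM in macrophages. Among the other cells it was 637 and 765 CPM, 680 and 773 CPM, and 394 and 383 CPM. In RSPO3-OE macrophages both the share of high-sum cells and the level within them were below those of Ctrl. The cells were split by the same sum, so the level of the remaining cells is limited by the split and does not divide the difference in total into parts. High-sum cells were deeper, with medians of 33327.5 against 20442 UMIs in RSPO3-OE tumour cells and 16889.5 against 11550 in RSPO3-OE macrophages.

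How closely each gene kept to such cells was measured with the gene itself left out of the sum. The median log2 ratio of a member's level between cells with a sum of at least 5 for the other 39 genes and the remaining cells was 3.94 in RSPO3-OE and 3.52 in Ctrl tumour cells. It was 4.28 and 4.46 in macrophages, and 4.33 and 3.99 in CD8 T cells. Plk1, the Polo kinase of mitotic entry and spindle building, was among the most restricted in tumour cells, at 5.19 in RSPO3-OE and 5.24 in Ctrl (68 against 1.86 CPM in RSPO3-OE). Kif2c, a kinesin that takes microtubules apart, was close to Plk1, at 5.2 in RSPO3-OE, the highest value there, and 4.96 in Ctrl. Ube2c, the ubiquitin-conjugating enzyme of the anaphase-promoting complex, stood at 4.91 in RSPO3-OE and 4.82 in Ctrl. The least restricted in tumour cells were Ccnb2, a B-type cyclin, at 2.26 in RSPO3-OE and 2.11 in Ctrl, and the condensin subunit Smc4 at 2.31 in RSPO3-OE and 2.13 in Ctrl. Smc4 still had UMIs in 64.4% of the remaining RSPO3-OE tumour cells and 62.8% of those in Ctrl.

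Restriction differed by class for some genes. Cenpa, the histone H3 variant that marks centromeres, stood at 3.49 in RSPO3-OE and 3.18 in Ctrl in tumour cells, 2.55 in RSPO3-OE and 2.4 in Ctrl in macrophages and 1.56 in RSPO3-OE and 1.42 in Ctrl in CD8 T cells. In the remaining CD8 T cells it still reached 188 CPM (RSPO3-OE) and 205 CPM (Ctrl), and 61.8% and 64.4% of those cells held a UMI. The comparable level in the remaining tumour cells was 21.6 and 41.2 CPM. Hmmr, a microtubule-binding protein of the spindle, was the most restricted in macrophages at 5.96 in RSPO3-OE and 6.16 in Ctrl, with 100.4 against 1.61 CPM in RSPO3-OE. Kif20a, a cytokinesis kinesin, and Nek2, a centrosome kinase, had 0 UMIs in the remaining CD8 T cells of RSPO3-OE. Set against a floor of 3 counts, they were at least 4.8 and 4.24 higher on the log2 scale in the high-sum cells.

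**Figure D3:**
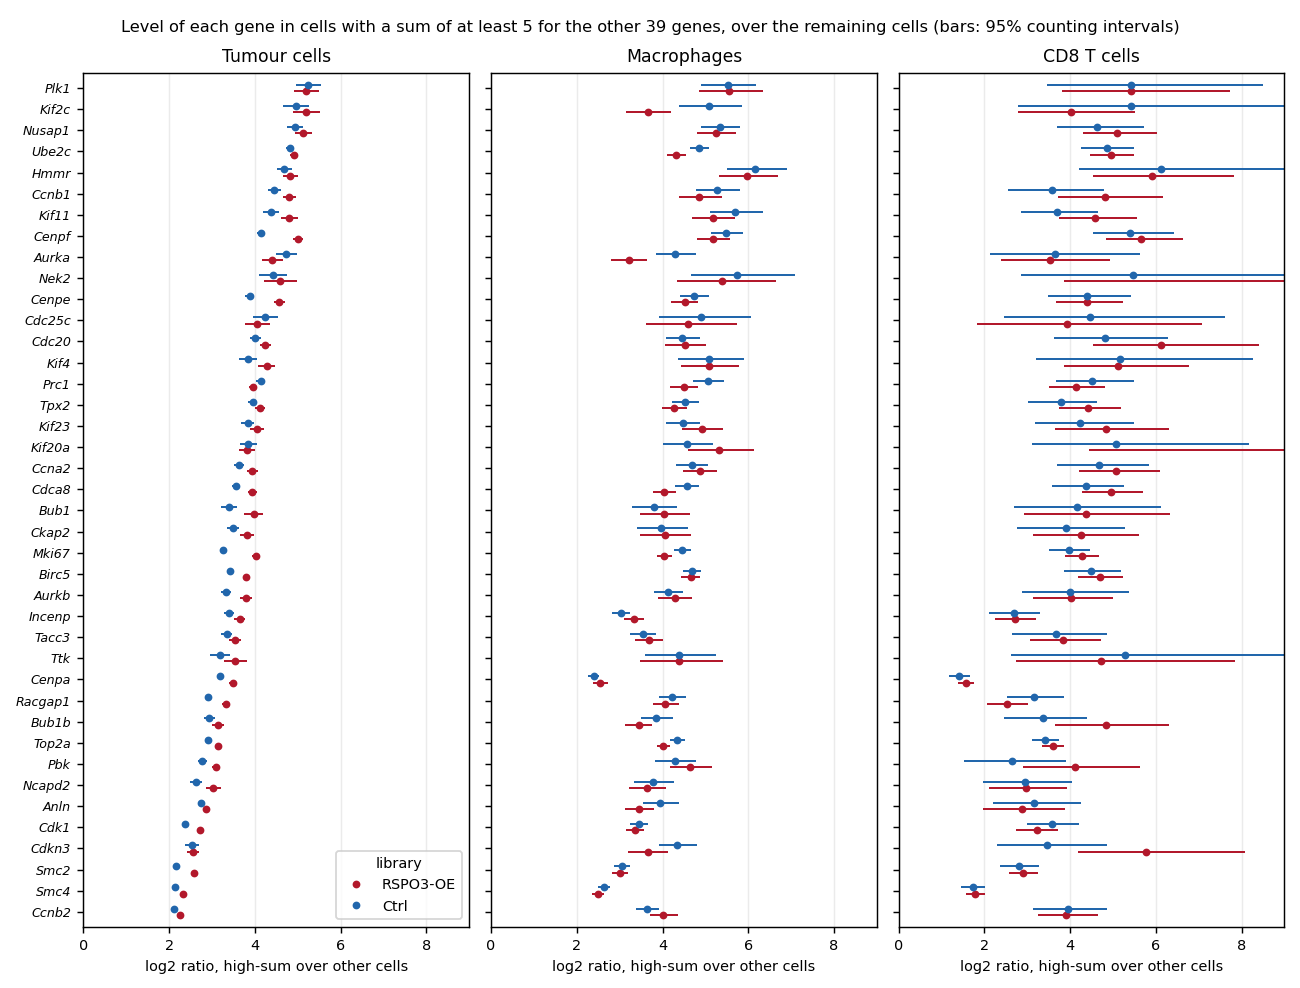
Log2 ratio of each gene's level between cells with a thinned sum of at least 5 for the other 39 genes and the remaining cells, with RSPO3-OE in red, Ctrl in blue and bars for 95% counting intervals. Genes are sorted by their tumour cell values, from Plk1, Kif2c and Nusap1 down to Smc2, Smc4 and Ccnb2. Bars that reach the right edge run on, and a bar without a point marks a gene with 0 UMIs in the remaining cells.

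Between the libraries, tumour cells held nearly the same total of mitosis RNA, but single members lay on either side. The summed log2 ratio, RSPO3-OE over Ctrl, was -0.014 (-0.019 to -0.0081), and scaling by the median of all genes put it at 0.075. The members' median log2 ratio was -0.034, and that of all 15214 genes with at least 10 UMIs was -0.089. No member was at least 1.5-fold higher in RSPO3-OE, against 13.6% of all genes. Cenpa was the single member at least 1.5-fold lower, against 17% of all genes. Past a log2 ratio of 0.32 in either direction, 4 members were higher, against 19.9% of all genes, and 5 lower, against 30.4%. Counting intervals lay above 0 for 13 members, below 0 for 20 and spanned 0 for 7, a count that was not made for all genes. The intervals are narrow because tumour cells held 524997 and 484981 member UMIs, and they say nothing of how tumours of 1 genotype differ from each other.

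Of the genes that start mitosis, Cdk1, the kinase that B-type cyclins switch on, was at nearly the same level in tumour cells of both libraries. It stood at 184 CPM (RSPO3-OE) against 187 CPM (Ctrl), from 21297 and 19888 UMIs. Cdk1 UMIs were found in 62.9% and 63.1% of cells (21.6% and 22.8% at 2000 UMIs per cell), and the log2 ratio was -0.029 (-0.057 to -0.0014). Ccnb1, the main B-type cyclin, was slightly higher in RSPO3-OE, at 97.3 CPM (RSPO3-OE) against 86 CPM (Ctrl), from 11285 and 9125 UMIs. Ccnb1 UMIs were found in 40.2% and 38.7% of cells (11.1% and 9.93% at 2000 UMIs per cell), and the log2 ratio was 0.18 (0.14 to 0.22). The S and G2 cyclin Ccna2 was a little lower (90 against 102 CPM, log2 ratio -0.18, -0.22 to -0.14), as was Ccnb2 (79.5 against 86.5 CPM, log2 ratio -0.12, -0.16 to -0.079). The phosphatases lay apart, with Cdc25c, which activates Cdk1, lower (17.3 against 21.7 CPM, log2 ratio -0.33, -0.41 to -0.24) and Cdkn3, which acts on cyclin-dependent kinases, higher (32.9 against 26.4 CPM, log2 ratio 0.32, 0.25 to 0.39). The 6 genes together had a log2 ratio of -0.026 (-0.043 to -0.0091).

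Mitotic kinases had ratios below 0 in RSPO3-OE tumour cells in 6 of 7 cases, against 59.0% of all genes, and with median scaling Aurkb (0.014) and Bub1 (0.060) lay above 0, as did Bub1 under the stricter class rule. Plk1 was at 37.4 CPM (RSPO3-OE) against 42.7 CPM (Ctrl), from 4341 and 4534 UMIs. Plk1 UMIs were found in 29.4% and 31.1% of cells (5.16% and 6.81% at 2000 UMIs per cell), and the log2 ratio was -0.19 (-0.25 to -0.13). Aurkb, the kinase of the chromosomal passenger complex, was at 61.6 CPM (RSPO3-OE) against 64.9 CPM (Ctrl), from 7145 and 6889 UMIs. Aurkb UMIs were found in 40.5% and 39.5% of cells (8.42% and 8.66% at 2000 UMIs per cell), and the log2 ratio was -0.075 (-0.12 to -0.027). Nek2, which helps separate centrosomes, had one of the lowest ratios of the 40, at 14.8 CPM (RSPO3-OE) against 19.6 CPM (Ctrl), from 1715 and 2078 UMIs. Nek2 UMIs were found in 20.7% and 23.1% of cells (1.92% and 2.75% at 2000 UMIs per cell), and the log2 ratio was -0.41 (-0.50 to -0.31). Aurka, the spindle pole kinase, followed (32.3 against 41.8 CPM, log2 ratio -0.37, -0.44 to -0.31). The exception was Pbk, a mitotic kinase, which was higher in RSPO3-OE, at 92.4 CPM (RSPO3-OE) against 71 CPM (Ctrl), from 10715 and 7541 UMIs. Pbk UMIs were found in 46.4% and 40.9% of cells (11.8% and 8.89% at 2000 UMIs per cell), and the log2 ratio was 0.38 (0.34 to 0.42). The checkpoint kinases Ttk and Bub1 had log2 ratios of -0.14 (-0.24 to -0.049) and -0.029 (-0.099 to 0.040).

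Checkpoint and anaphase-promoting complex genes were level or slightly lower. Ube2c stood at 278 CPM (RSPO3-OE) against 328 CPM (Ctrl), from 32208 and 34871 UMIs. Ube2c UMIs were found in 50.1% and 48.6% of cells (21% and 22.6% at 2000 UMIs per cell), and the log2 ratio was -0.24 (-0.26 to -0.22). Cdc20, which activates the complex, was at 108 CPM (RSPO3-OE) against 107 CPM (Ctrl), and Bub1b, which holds Cdc20 in check, at 45.9 CPM (RSPO3-OE) against 51.9 CPM (Ctrl). Of the chromosomal passenger complex, which corrects wrong spindle attachments, Birc5 (survivin) was at 246 CPM (RSPO3-OE) against 223 CPM (Ctrl), from 28486 and 23715 UMIs. Birc5 UMIs were found in 53.1% and 51.5% of cells (26.1% and 21.8% at 2000 UMIs per cell), and the log2 ratio was 0.14 (0.11 to 0.16). Its partners Cdca8 (borealin) and Incenp, the scaffold, had log2 ratios of -0.017 (-0.048 to 0.015) and -0.12 (-0.17 to -0.080).

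Centromere genes held the largest difference of the 40 in tumour cells. Cenpa (chromosome 5, 30666777 to 30674830, plus strand) stood at 139 CPM (RSPO3-OE) against 215 CPM (Ctrl), from 16157 and 22873 UMIs. Cenpa UMIs were found in 46.3% and 50.8% of cells (15.8% and 21.3% at 2000 UMIs per cell), and the log2 ratio was -0.63 (-0.66 to -0.60). Its ratio ranged from -0.67 to -0.54 over the alternatives tried, and with median scaling, at -0.54, it no longer passed 1.5-fold. Cenpf, a large kinetochore protein of late interphase and mitosis, was also lower, at 202 CPM (RSPO3-OE) against 239 CPM (Ctrl), from 23442 and 25343 UMIs. Cenpf UMIs were found in 46.8% and 49.5% of cells (18.2% and 21.4% at 2000 UMIs per cell), and the log2 ratio was -0.24 (-0.27 to -0.21). Cenpe, the kinetochore motor, was level (132 against 131 CPM, log2 ratio 0.0092, -0.024 to 0.042). As a group the 3 summed to 473 CPM (RSPO3-OE) against 585 CPM (Ctrl).

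Among kinesins, Kif11, which pushes the spindle poles apart, was level at 59.6 CPM (RSPO3-OE) against 58.9 CPM (Ctrl), from 6918 and 6255 UMIs. Kif11 UMIs were found in 37.9% and 36.1% of cells (7.81% and 7.55% at 2000 UMIs per cell), and the log2 ratio was 0.017 (-0.032 to 0.067). Kif4, a chromosome-bound kinesin, was higher in RSPO3-OE (43.7 against 34.4 CPM, log2 ratio 0.34, 0.28 to 0.41), and Kif2c was slightly higher on the pooled counts (33.9 against 31.9 CPM, log2 ratio 0.085, 0.019 to 0.15) but lower, at -0.12, after thinning. Kif20a and Kif23, which work in cytokinesis, had log2 ratios of -0.033 (-0.095 to 0.029) and -0.14 (-0.19 to -0.089). Of the spindle assembly factors, Hmmr and Nusap1, which bind spindle microtubules, were higher at 0.16 (0.11 to 0.20) and 0.17 (0.13 to 0.22). Tpx2, which activates Aurka on the spindle, and Ckap2 were close to level at -0.070 (-0.11 to -0.034) and -0.037 (-0.089 to 0.016). Tacc3, which ties spindle fibres together, had one of the 3 lowest ratios, at 52.3 CPM (RSPO3-OE) against 68.4 CPM (Ctrl), from 6069 and 7259 UMIs. Tacc3 UMIs were found in 43.3% and 43.6% of cells (7.43% and 9.84% at 2000 UMIs per cell), and the log2 ratio was -0.39 (-0.44 to -0.34).

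Anln, Racgap1 and Prc1, grouped here as cytokinesis genes that are not kinesins, were each higher in RSPO3-OE tumour cells, though none by 1.5-fold, and summed to 502 CPM (RSPO3-OE) against 404 CPM (Ctrl), a log2 ratio of 0.31 (0.29 to 0.33). The cytokinesis kinesins Kif20a and Kif23, given above, did not share this direction. Anln (chromosome 9, 22332012 to 22389188, minus strand), the scaffold of the contractile ring, had the highest ratio of the 40, at 182 CPM (RSPO3-OE) against 139.8 CPM (Ctrl), from 21095 and 14840 UMIs. Anln UMIs were found in 63.6% and 57.9% of cells (21.4% and 17.4% at 2000 UMIs per cell), and the log2 ratio was 0.38 (0.35 to 0.41). Racgap1, which with Kif23 forms the centralspindlin complex, was at 134 CPM (RSPO3-OE) against 104 CPM (Ctrl), from 15522 and 11088 UMIs. Racgap1 UMIs were found in 56.4% and 52.2% of cells (17% and 13.4% at 2000 UMIs per cell), and the log2 ratio was 0.36 (0.32 to 0.39). Prc1, which bundles microtubules of the midzone, was at 186 CPM (RSPO3-OE) against 160.0 CPM (Ctrl), with a log2 ratio of 0.22 (0.19 to 0.25). These 3 genes stayed above 0 under each alternative tried.

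Genes of chromosome structure had no common direction in tumour cells. Top2a, the topoisomerase that untangles sister chromatids, was at 575 CPM (RSPO3-OE) against 529.5 CPM (Ctrl), from 66765 and 56218 UMIs. Top2a UMIs were found in 66.8% and 65.1% of cells (37.2% and 37.3% at 2000 UMIs per cell), and the log2 ratio was 0.12 (0.10 to 0.14). After thinning its ratio was -0.0012. Mki67, which coats mitotic chromosomes and is the standard marker of dividing cells, was lower in RSPO3-OE, at 191 CPM (RSPO3-OE) against 222 CPM (Ctrl), from 22159 and 23576 UMIs. Mki67 UMIs were found in 51.4% and 55.5% of cells (20.9% and 24.8% at 2000 UMIs per cell), and the log2 ratio was -0.22 (-0.24 to -0.19). Smc4, of the condensin core, was level, at 306 CPM (RSPO3-OE) against 314 CPM (Ctrl), from 35542 and 33301 UMIs. Smc4 UMIs were found in 78.4% and 76.9% of cells (32.9% and 31.9% at 2000 UMIs per cell), and the log2 ratio was -0.034 (-0.056 to -0.013). Its partner Smc2 was higher (156 against 134 CPM, log2 ratio 0.21, 0.18 to 0.24), and Ncapd2, of condensin I, slightly lower (28.6 against 32.1 CPM, log2 ratio -0.17, -0.24 to -0.098).

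**Figure D4:**
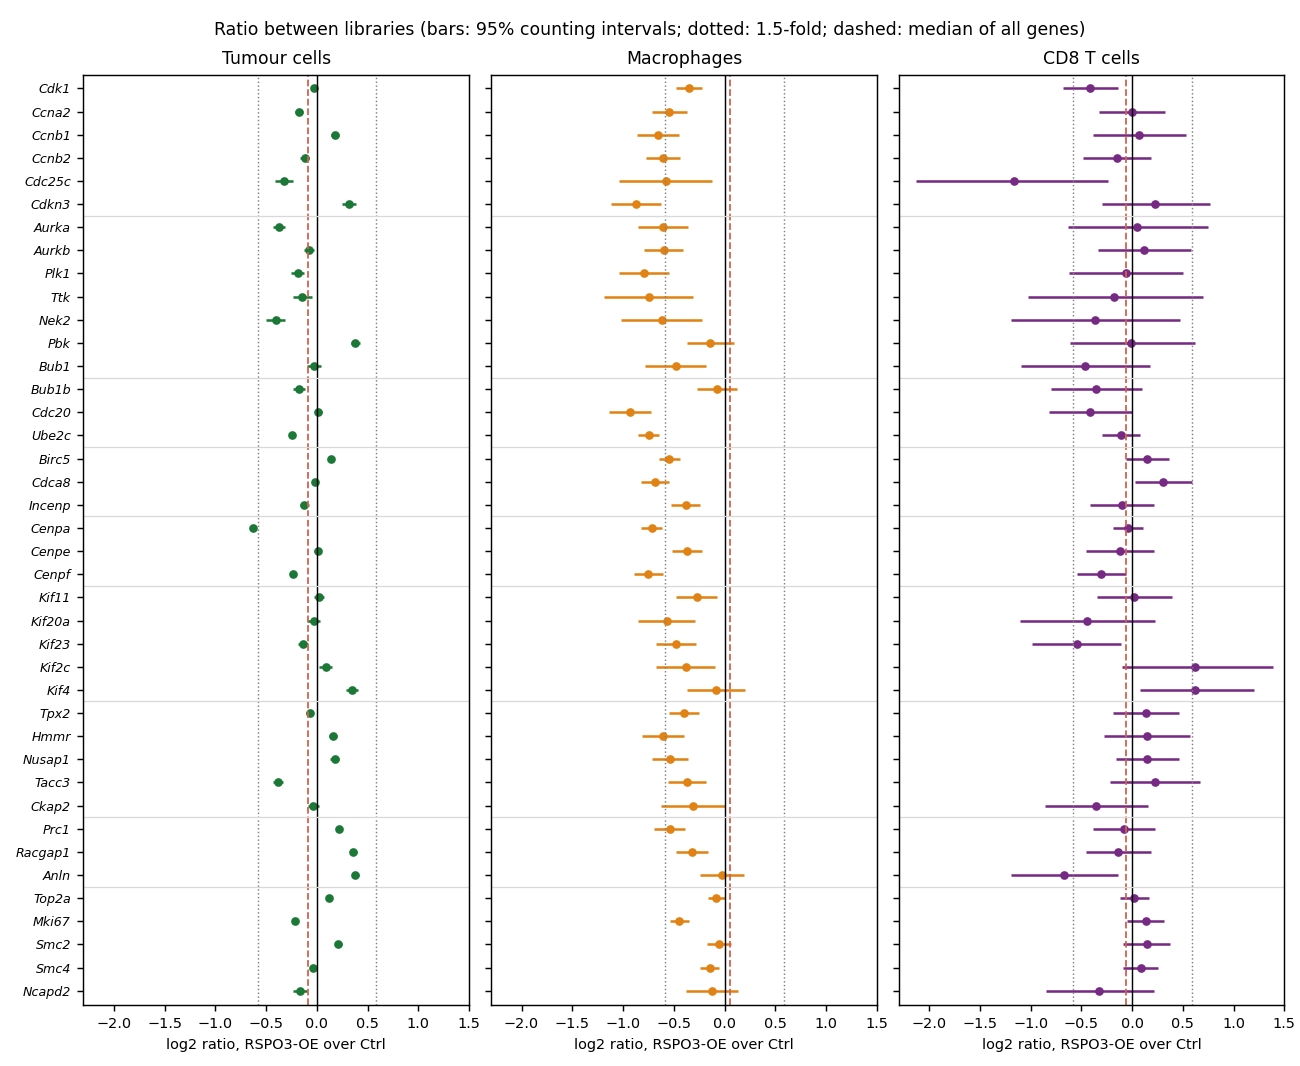
Log2 ratio of each gene between the libraries (RSPO3-OE over Ctrl) in each class, with bars for 95% counting intervals, dotted lines at 1.5-fold and a dashed line at the median of all genes tested. In tumour cells the points lie close to 0 from Cenpa at -0.63 to Anln at 0.38, in macrophages all 40 lie below 0, and in CD8 T cells most bars span 0.

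In macrophages the members were lower in RSPO3-OE throughout. Their sum was 1.35-fold higher in Ctrl, a log2 ratio of -0.43 (-0.46 to -0.41), and all 40 had a ratio below 0, against 44.4% of all genes. The members' median was -0.51, whereas the median of all 12845 genes tested was 0.052. At least 1.5-fold lower were 14 members, or 35%, against 7.79% of all genes, and 0 were at least 1.5-fold higher, against 13.3%. Past a log2 ratio of 0.32, 29 members were lower, against 15.9% of all genes, and 0 higher, against 24.2%. Counting intervals lay below 0 for 32 and spanned 0 for 8, a count that was not made for all genes. With the marked doublets kept, which gave 1316 macrophages in RSPO3-OE and 1236 in Ctrl, the summed ratio was -0.28, with 35 members below 0 and 5 of them at least 1.5-fold lower. The share of all genes was not counted with doublets kept, so whether those 5 of 40 exceed it is not known. Without doublets it was 7.79%, as given above. Markers of tumour cells summed to 64.9 and 32.7 CPM in macrophages, and Hmga2 stood at 42.6 CPM in high-sum against 9.34 CPM in other macrophages of RSPO3-OE and at 6.98 and 7.02 CPM in Ctrl. Without macrophages that held a Hmga2 UMI the summed ratio was -0.48. Haemoglobin genes summed to 0.13 and 259 CPM, and their part in the difference was not tested.

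The regulators of anaphase had the lowest summed ratio of the role groups. Cdc20 (chromosome 4, 118432901 to 118437352, minus strand) had the lowest ratio, at 18.3 CPM (RSPO3-OE) against 34.9 CPM (Ctrl), from 281 and 558 UMIs. Cdc20 UMIs were found in 11.1% and 16.7% of cells (2.49% and 4.37% at 2000 UMIs per cell), and the log2 ratio was -0.93 (-1.14 to -0.72). Ube2c was at 80.7 CPM (RSPO3-OE) against 135 CPM (Ctrl), from 1238 and 2163 UMIs. Ube2c UMIs were found in 23.8% and 27.6% of cells (9.05% and 12.9% at 2000 UMIs per cell), and the log2 ratio was -0.75 (-0.85 to -0.64). Bub1b, by contrast, was nearly level, at 26.6 CPM (RSPO3-OE) against 28 CPM (Ctrl), from 408 and 447 UMIs. Bub1b UMIs were found in 18.2% and 19.8% of cells (3.16% and 4.63% at 2000 UMIs per cell), and the log2 ratio was -0.073 (-0.27 to 0.12). The 3 summed to 126 CPM (RSPO3-OE) against 198 CPM (Ctrl). Of the Cdk1 regulators, Cdkn3 had the second lowest ratio of the 40, at 13.4 CPM (RSPO3-OE) against 24.4 CPM (Ctrl), from 205 and 390 UMIs. Cdkn3 UMIs were found in 8.9% and 15.5% of cells (1.99% and 3.34% at 2000 UMIs per cell), and the log2 ratio was -0.87 (-1.12 to -0.62). Cdk1 itself was at 58.8 CPM (RSPO3-OE) against 75 CPM (Ctrl), from 902 and 1198 UMIs. Cdk1 UMIs were found in 25.2% and 30.4% of cells (6.56% and 9.17% at 2000 UMIs per cell), and the log2 ratio was -0.35 (-0.48 to -0.22). Ccnb1 stood at 20.4 CPM (RSPO3-OE) against 32.1 CPM (Ctrl), from 313 and 513 UMIs. Ccnb1 UMIs were found in 11% and 16.2% of cells (2.24% and 3.77% at 2000 UMIs per cell), and the log2 ratio was -0.65 (-0.86 to -0.45). All 6 cyclin, Cdk1 and phosphatase genes had intervals below 0, with Ccna2 at -0.54 (-0.71 to -0.37), Ccnb2 at -0.60 (-0.77 to -0.43) and Cdc25c, on 67 and 104 UMIs, at -0.58 (-1.04 to -0.12).

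Mitotic kinases followed the same direction in macrophages. Plk1 had the third lowest ratio, at 14.1 CPM (RSPO3-OE) against 24.4 CPM (Ctrl), from 216 and 390 UMIs. Plk1 UMIs were found in 8.32% and 14.1% of cells (1.83% and 4.03% at 2000 UMIs per cell), and the log2 ratio was -0.79 (-1.04 to -0.55). Aurkb was at 24.6 CPM (RSPO3-OE) against 37.4 CPM (Ctrl), from 378 and 597 UMIs. Aurkb UMIs were found in 14.6% and 20.8% of cells (3.41% and 5.83% at 2000 UMIs per cell), and the log2 ratio was -0.60 (-0.79 to -0.41). Aurka, Nek2 and Ttk were also at least 1.5-fold lower, with log2 ratios of -0.61 (-0.85 to -0.36), -0.62 (-1.02 to -0.22) and -0.75 (-1.19 to -0.31). Bub1 was at -0.48 (-0.79 to -0.18), and the interval of Pbk spanned 0, at -0.14 (-0.37 to 0.094). In the chromosomal passenger complex Birc5 stood at 88.6 CPM (RSPO3-OE) against 129 CPM (Ctrl), from 1360 and 2064 UMIs. Birc5 UMIs were found in 21.7% and 28.1% of cells (9.3% and 12.9% at 2000 UMIs per cell), and the log2 ratio was -0.54 (-0.64 to -0.44). Cdca8 was lower still (45 against 72.2 CPM, log2 ratio -0.68, -0.82 to -0.55), and Incenp less so (47.9 against 62.5 CPM, log2 ratio -0.38, -0.52 to -0.25).

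Centromere genes were lower as well. Cenpf was at 39.6 CPM (RSPO3-OE) against 66.6 CPM (Ctrl), from 608 and 1065 UMIs. Cenpf UMIs were found in 13.3% and 19.4% of cells (4.49% and 6.17% at 2000 UMIs per cell), and the log2 ratio was -0.75 (-0.90 to -0.61). Cenpa was found in 36.4% and 46.9% of cells and stood at 76.4 CPM (RSPO3-OE) against 126 CPM (Ctrl), a log2 ratio of -0.72 (-0.82 to -0.61). Cenpe had a smaller difference (41.1 against 53.2 CPM, log2 ratio -0.37, -0.52 to -0.22). Of the kinesins, Kif11 was slightly lower, at 24.1 CPM (RSPO3-OE) against 29.2 CPM (Ctrl), from 370 and 466 UMIs. Kif11 UMIs were found in 12.2% and 15.9% of cells (3.24% and 4.11% at 2000 UMIs per cell), and the log2 ratio was -0.27 (-0.48 to -0.074). The cytokinesis kinesins Kif20a and Kif23 were at -0.57 (-0.85 to -0.29) and -0.48 (-0.68 to -0.28), Kif2c was at -0.38 (-0.68 to -0.092), and Kif4 spanned 0 at -0.088 (-0.37 to 0.20). Hmmr was the single spindle assembly factor past 1.5-fold (20.4 against 31.1 CPM, log2 ratio -0.61, -0.82 to -0.40), with Nusap1 at -0.54 (-0.71 to -0.36), Tpx2 at -0.40 (-0.55 to -0.25), Tacc3 at -0.37 (-0.56 to -0.18) and Ckap2 at -0.31 (-0.63 to 0.0036).

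The members nearest to 0 in macrophages came from several roles, with Anln, Smc2, Bub1b, Top2a and Kif4 at ratios between -0.088 and -0.025. Anln had the highest ratio of the 40 and was level, at 23 CPM (RSPO3-OE) against 23.4 CPM (Ctrl), from 353 and 374 UMIs. Anln UMIs were found in 15.1% and 16.1% of cells (2.57% and 4.03% at 2000 UMIs per cell), and the log2 ratio was -0.025 (-0.24 to 0.19). Smc2 was likewise level, at 69.3 CPM (RSPO3-OE) against 72 CPM (Ctrl), from 1064 and 1151 UMIs. Smc2 UMIs were found in 30.1% and 31.9% of cells (8.22% and 9.34% at 2000 UMIs per cell), and the log2 ratio was -0.055 (-0.18 to 0.067). Top2a was at 149 CPM (RSPO3-OE) against 158 CPM (Ctrl), from 2289 and 2523 UMIs. Top2a UMIs were found in 27.8% and 32.1% of cells (12% and 13.7% at 2000 UMIs per cell), and the log2 ratio was -0.082 (-0.16 to 0.00036). Smc4 was at 113 CPM (RSPO3-OE) against 125 CPM (Ctrl), from 1733 and 1999 UMIs. Smc4 UMIs were found in 48.6% and 51.1% of cells (15.8% and 15.9% at 2000 UMIs per cell), and the log2 ratio was -0.15 (-0.24 to -0.054). Mki67 differed more than these, at 103 CPM (RSPO3-OE) against 140.2 CPM (Ctrl), from 1581 and 2241 UMIs. Mki67 UMIs were found in 26% and 31.5% of cells (9.14% and 13.9% at 2000 UMIs per cell), and the log2 ratio was -0.44 (-0.54 to -0.35). Ncapd2 had a ratio of -0.12 (-0.38 to 0.13), and the cytokinesis genes Prc1 and Racgap1 had ratios of -0.54 (-0.69 to -0.39) and -0.32 (-0.48 to -0.16). Summed by role, the log2 ratio was -0.19 (-0.23 to -0.14) for chromosome structure, against -0.64 (-0.72 to -0.57) for centromere genes and -0.66 (-0.74 to -0.58) for checkpoint and anaphase genes. With the doublets kept, 5 members were above 0, namely Anln, Top2a, Kif4, Pbk and Smc2, at 0.41, 0.12, 0.22, 0.11 and 0.057. After thinning, Racgap1 and Ncapd2 were above 0, at 0.14 and 0.28, and under the looser class rule Anln was, at 0.074.

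CD8 T cells held about the same total in both libraries, with few cells behind it. The summed log2 ratio was -0.023 (-0.070 to 0.024), the members' median was -0.054, and that of all 10777 genes tested was -0.060. That interval treats UMIs as independent, although 85.6% and 83.8% of member UMIs came from 80 and 36 high-sum cells. Counted by cell, the log2 ratio of the high-sum shares had a far wider interval, from -0.48 to 0.97. At least 1.5-fold higher were 2 members, Kif4 and Kif2c, or 5%, against 9.85% of all genes. At least 1.5-fold lower were 2, Anln and Cdc25c, against 19.1%. Past a log2 ratio of 0.32, 2 members were higher, against 19.3% of all genes, and 11 lower, against 30.7%. Intervals spanned 0 for 33 of the 40, a count that was not made for all genes. Over the alternatives tried, from 0 to 5 members were at least 1.5-fold higher and from 1 to 8 lower, so these counts are not stable. The share of all genes was not counted under those alternatives. Markers of tumour cells summed to 72.4 and 247 CPM in these cells. Of the 461 UMIs behind the Ctrl sum, 239 were Krt8, at 128 CPM against 87.5 CPM in Ctrl tumour cells. Krt8 stood at 3.15 CPM in high-sum and 193 CPM in other CD8 T cells of Ctrl. The source of this Krt8 was not tested. Hmga2 stood at 105 CPM in high-sum against 29.3 CPM in other CD8 T cells of Ctrl, and at 22.1 and 9.66 CPM in RSPO3-OE. Leaving out cells that held a Hmga2 UMI left 331 and 165 CD8 T cells in RSPO3-OE and Ctrl, of which 23.5% and 17.6% of those deep enough to thin were high-sum. The part of tumour cell RNA in the values was not otherwise tested.

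Among kinesins, Kif4 had the highest ratio in CD8 T cells, at 32.2 CPM (RSPO3-OE) against 20.9 CPM (Ctrl), from 97 and 39 UMIs. Kif4 UMIs were found in 12.8% and 12.2% of cells (2.93% and 2.78% at 2000 UMIs per cell), and the log2 ratio was 0.62 (0.073 to 1.2). Kif2c was next but its interval spanned 0, at 18.9 CPM (RSPO3-OE) against 12.3 CPM (Ctrl), from 57 and 23 UMIs. Kif2c UMIs were found in 9.59% and 9.44% of cells (2.64% and 0.556% at 2000 UMIs per cell), and the log2 ratio was 0.62 (-0.10 to 1.38). Kif11 was level at 54.5 CPM (RSPO3-OE) against 53.7 CPM (Ctrl), from 164 and 100 UMIs. Kif11 UMIs were found in 19.5% and 20% of cells (6.74% and 7.22% at 2000 UMIs per cell), and the log2 ratio was 0.022 (-0.35 to 0.40). Kif23 was among the 3 lowest, at 31.6 CPM (RSPO3-OE) against 46.2 CPM (Ctrl), from 95 and 86 UMIs. Kif23 UMIs were found in 12.5% and 17.2% of cells (3.81% and 5.56% at 2000 UMIs per cell), and the log2 ratio was -0.55 (-0.98 to -0.11). The lowest ratio was that of Cdc25c, on few UMIs, at 5.98 CPM (RSPO3-OE) against 13.4 CPM (Ctrl), from 18 and 25 UMIs. Cdc25c UMIs were found in 4.65% and 7.78% of cells (0.293% and 1.11% at 2000 UMIs per cell), and the log2 ratio was -1.17 (-2.13 to -0.23). Anln was at 20.9 CPM (RSPO3-OE) against 33.3 CPM (Ctrl), from 63 and 62 UMIs. Anln UMIs were found in 6.4% and 12.2% of cells (2.64% and 2.78% at 2000 UMIs per cell), and the log2 ratio was -0.67 (-1.2 to -0.14). After thinning the ratio of Anln was 0.078, of the opposite sign.

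Cdk1 was lower in RSPO3-OE CD8 T cells, at 83.7 CPM (RSPO3-OE) against 112 CPM (Ctrl), from 252 and 208 UMIs. Cdk1 UMIs were found in 26.5% and 26.7% of cells (8.5% and 11.7% at 2000 UMIs per cell), and the log2 ratio was -0.41 (-0.69 to -0.14). Ccnb1 was level, at 36.6 CPM (RSPO3-OE) against 34.9 CPM (Ctrl), from 110 and 65 UMIs. Ccnb1 UMIs were found in 14% and 15.6% of cells (3.81% and 6.67% at 2000 UMIs per cell), and the log2 ratio was 0.067 (-0.39 to 0.53). The kinases gave wide intervals around 0, with Plk1 at 23.6 CPM (RSPO3-OE) against 24.7 CPM (Ctrl), from 71 and 46 UMIs. Plk1 UMIs were found in 11.9% and 13.3% of cells (1.76% and 2.22% at 2000 UMIs per cell), and the log2 ratio was -0.065 (-0.62 to 0.50). Aurkb was at 37.9 CPM (RSPO3-OE) against 34.9 CPM (Ctrl), from 114 and 65 UMIs. Aurkb UMIs were found in 15.7% and 15% of cells (4.69% and 1.67% at 2000 UMIs per cell), and the log2 ratio was 0.12 (-0.33 to 0.58). In the passenger complex Cdca8 had the third highest ratio of the 40, at 108 CPM (RSPO3-OE) against 87.5 CPM (Ctrl), from 326 and 163 UMIs. Cdca8 UMIs were found in 23.3% and 23.9% of cells (12.3% and 8.33% at 2000 UMIs per cell), and the log2 ratio was 0.31 (0.033 to 0.59). Birc5 was at 165 CPM (RSPO3-OE) against 149 CPM (Ctrl), from 498 and 278 UMIs. Birc5 UMIs were found in 25.3% and 22.2% of cells (12.6% and 11.7% at 2000 UMIs per cell), and the log2 ratio was 0.15 (-0.065 to 0.37). Ube2c was at 198 CPM (RSPO3-OE) against 214 CPM (Ctrl), from 596 and 398 UMIs. Ube2c UMIs were found in 26.7% and 25% of cells (14.4% and 15% at 2000 UMIs per cell), and the log2 ratio was -0.11 (-0.29 to 0.078).

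Cenpf was lower in RSPO3-OE CD8 T cells, at 109 CPM (RSPO3-OE) against 134 CPM (Ctrl), from 327 and 250 UMIs. Cenpf UMIs were found in 20.3% and 20% of cells (10.3% and 8.89% at 2000 UMIs per cell), and the log2 ratio was -0.30 (-0.55 to -0.061). Top2a was level, at 349 CPM (RSPO3-OE) against 343 CPM (Ctrl), from 1049 and 640 UMIs. Top2a UMIs were found in 40.7% and 43.3% of cells (22.9% and 18.9% at 2000 UMIs per cell), and the log2 ratio was 0.021 (-0.12 to 0.17). Mki67 was at 225 CPM (RSPO3-OE) against 206 CPM (Ctrl), from 678 and 383 UMIs. Mki67 UMIs were found in 32.3% and 31.1% of cells (17.6% and 16.1% at 2000 UMIs per cell), and the log2 ratio was 0.13 (-0.051 to 0.32). Smc4 was at 257 CPM (RSPO3-OE) against 243 CPM (Ctrl), from 773 and 452 UMIs. Smc4 UMIs were found in 67.7% and 63.3% of cells (32.8% and 31.7% at 2000 UMIs per cell), and the log2 ratio was 0.082 (-0.087 to 0.25). Cenpa, found in 68.6% and 70.6% of cells, was at 309.7 CPM (RSPO3-OE) against 319 CPM (Ctrl), a log2 ratio of -0.042 (-0.19 to 0.11). The remaining members had intervals that spanned 0 and ratios from -0.46 for Bub1 to 0.23 for Cdkn3.

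Set against each other within a library, the classes differed in level and in which members made up the sum. All 40 members were higher in tumour cells than in macrophages in both libraries, and 38 were at least 1.5-fold higher in both, against 36% of all genes. The exceptions were Incenp and Cdkn3. The members' median log2 ratio was 1.56 in RSPO3-OE and 1.16 in Ctrl. Tumour cells over CD8 T cells gave 18 members at least 1.5-fold higher in both libraries, against 34.9% of all genes, with medians of 0.67 and 0.67. CD8 T cells over macrophages gave 13, against 19.9%, with medians of 0.90 and 0.53. In none of the 3 comparisons was a member at least 1.5-fold lower in both libraries, against 21.2%, 16.6% and 21.6% of all genes.

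The part of the summed member UMIs that each gene took removes the difference in total. Anln took 4.02% and 3.06% of the sum in RSPO3-OE and Ctrl tumour cells, 1.56% and 1.17% in macrophages and 0.676% and 1.06% in CD8 T cells. Its part was larger in tumour cells than in macrophages by a log2 ratio of 1.37 in RSPO3-OE and 1.38 in Ctrl, and than in CD8 T cells by 2.57 in RSPO3-OE and 1.53 in Ctrl. Pbk was next against CD8 T cells, at 1.64 in RSPO3-OE and 1.26 in Ctrl. Cenpa went the other way, taking 3.08% and 4.72% in tumour cells, 5.17% and 6.29% in macrophages and 9.99% and 10.1% in CD8 T cells. Its part in tumour cells over CD8 T cells had a log2 ratio of -1.7 in RSPO3-OE and -1.1 in Ctrl. Incenp and Mki67 took a smaller part in tumour cells than in macrophages, at -1.07 in RSPO3-OE and -0.91 in Ctrl and at -0.73 in RSPO3-OE and -0.53 in Ctrl. Ckap2, Cenpf and Pbk took a larger one there, at 0.81 in RSPO3-OE and 0.96 in Ctrl, at 0.73 in RSPO3-OE and 0.65 in Ctrl and at 0.69 in RSPO3-OE and 0.59 in Ctrl. In tumour cells over macrophages, intervals lay above 0 in both libraries for 10 members and below 0 in both for 16. Each pair of classes comes from 1 library and so shares its free RNA.

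**Figure D5:**
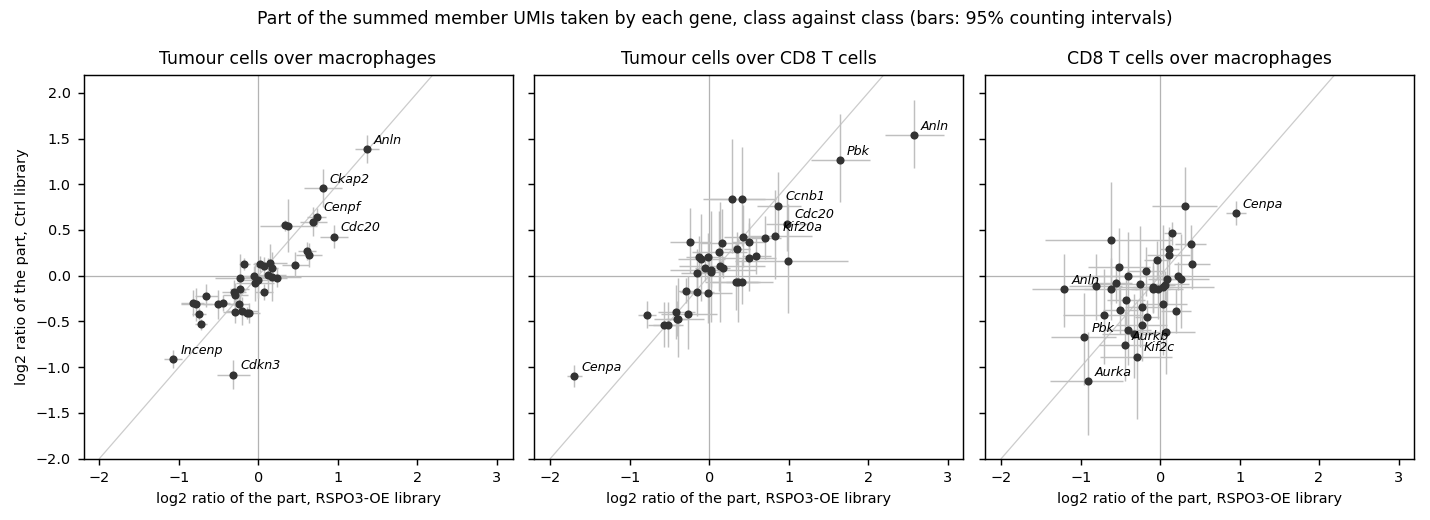
Log2 ratio of the part of the summed member UMIs taken by each gene between classes, with the RSPO3-OE library on the x axis, the Ctrl library on the y axis, bars for 95% counting intervals and a diagonal of equal values. Anln lies at the upper right in both comparisons of tumour cells (1.37 and 1.38 over macrophages), Cenpa at the lower left for tumour over CD8 T cells (-1.70 and -1.10) and at the upper right for CD8 T cells over macrophages.

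Other genes of mitosis, from a list of 44 of which 42 were found, went the same way as the members in macrophages. Their median log2 ratio there was -0.41, 40 of 42 were below 0, and 10 were at least 1.5-fold lower and 0 higher, against 7.79% and 13.3% of all genes. The lowest was Cdca2, which recruits a phosphatase to chromosomes at mitotic exit (8.41 against 16.6 CPM, -0.99 (-1.3 to -0.68)), followed by the kinesin Kif22 (11.7 against 20.8 CPM, -0.83 (-1.1 to -0.57)) and Sgo2a, which protects centromeric cohesion (9.77 against 16.2 CPM, -0.73 (-1.03 to -0.43)). In tumour cells the list had a median of -0.13, with 1 gene at least 1.5-fold higher, the tubulin Tuba1c (331 against 202 CPM, 0.71 (0.69 to 0.74)), and 0 lower, against 13.6% and 17% of all genes. In CD8 T cells the median was -0.071, with 1 higher and 5 lower, against 9.85% and 19.1% of all genes.

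S phase genes, which act in DNA replication, lay nearer to 0 than the mitosis genes in macrophages and further below it in tumour cells. In macrophages the median of 33 genes was -0.069 and the sum had a log2 ratio of -0.053 (-0.082 to -0.023), with 0 genes at least 1.5-fold higher and 1 lower (13.3% and 7.79% of all genes), the thymidylate synthase Tyms (30 against 49.3 CPM, -0.71 (-0.88 to -0.55)). In tumour cells the median was -0.26 and the sum -0.26 (-0.27 to -0.25), with 0 higher and 4 lower of 33, against 13.6% and 17% of all genes. The 4 include Dtl, a substrate receptor of a replication-coupled ubiquitin ligase (19.1 against 43.4 CPM, -1.19 (-1.26 to -1.11)), Ung (9.68 against 17.8 CPM, -0.88 (-0.98 to -0.77)) and the helicase subunit Mcm7 (65.2 against 107 CPM, -0.72 (-0.76 to -0.67)). In CD8 T cells the sum differed by less than counting error, at 0.00050 (-0.060 to 0.061).

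Of 12 inhibitors of the cycle, Cdkn1a (p21), which blocks cyclin-dependent kinases, was higher in RSPO3-OE in each class. It stood at 112 against 35.1 CPM, 1.67 (1.62 to 1.72) in tumour cells, 642 against 307 CPM, 1.06 (1.01 to 1.11) in macrophages and 100.4 against 24.2 CPM, 2.05 (1.6 to 2.54) in CD8 T cells. Btg2, an antiproliferative gene, was at 325 against 204 CPM, 0.67 (0.65 to 0.70), 759.6 against 559 CPM, 0.44 (0.40 to 0.48) and 431 against 327 CPM, 0.40 (0.26 to 0.54). Both are also known to respond to stress. The handling genes, given above by class, were not uniform. In RSPO3-OE their sum was higher in tumour cells, with 8 of 10 genes higher, and in macrophages, with 7 of 10, and slightly lower in CD8 T cells, with 3 of 10 higher. The heat shock genes Hspa1a and Hspa1b were lower in all 3 classes and Jun was lower in macrophages and CD8 T cells. The part of these genes here was not tested. In macrophages Cdkn2d was lower (26.8 against 51.6 CPM, -0.94 (-1.12 to -0.77)), and the medians of the measured inhibitors were -0.22, -0.16 and -0.075. The 16 upstream regulators, subunits of E2F, MuvB and related complexes, had medians of -0.066, -0.069 and 0.097. Lin54, the MuvB subunit that binds the CHR letters, was the highest of them in macrophages (64.4 against 22.5 CPM, 1.52 (1.34 to 1.69)) and CD8 T cells (63.1 against 22.5 CPM, 1.49 (1.0 to 2.0)), but lower in tumour cells (15.7 against 19.8 CPM, -0.33 (-0.43 to -0.24)).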

How the data were processed

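Single-cell RNA was captured with droplet 3′ chemistry from tumour tissue, 1 library per genotype. The authors deposited UMI counts, unnormalized, for every gene in every barcode. Per the labels' protocols, Cell Ranger 3.0.1 and the mm10 genome were used, whereas per the file headers the software version was 3.1.0. The deposited barcodes had already been called as cells.

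A minimum of 200 genes and a maximum of 20% mitochondrial UMIs per barcode removed 150 from RSPO3-OE and 311 from Ctrl. Those that Scrublet in scanpy 1.11.5 marked as doublets at an expected rate of 0.05 (2.39% and 1.36%) were also removed. For each class in each library, summed counts were expressed per class total as CPM, in Python 3.11.15 with numpy 2.4.6, scipy 1.17.1 and pandas 2.3.3. Log2 ratios have exact binomial, levels exact Poisson and shares exact Clopper-Pearson intervals, at 95%, for counting error only. The interval of a ratio of shares was built from the bounds of both shares. Genes with at least 10 UMIs over both libraries counted as measured. With 1 library per group, p-values were not computed. Only the ratios and their intervals were tested on simulated counts, which were class totals without cells, free RNA or doublets. Class rules, doublet calls and high-sum shares were not simulated.

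All 40 members could be named. Full values were given for Mki67, Top2a, Cdk1, Ccnb1, Plk1, Aurkb, Birc5, Cenpf, Kif11, Ube2c and Smc4, and for the 3 highest and 3 lowest ratios per class, and other lists were named by at most 3 genes at each end. Rspo3 and the genes that defined or checked a class were named as such. The members, lists, class rules and thresholds were chosen with earlier results of these data known. Gene positions came from GENCODE vM21 (mm10, the build GRCm38) and promoter sequences from RefSeq.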

Additional observations from a re-analysis of the deposited data

Results flagged for a closer look

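Cells that met no class rule also held the mitosis genes above the neutrophil level of 283 CPM (RSPO3-OE) and 235 CPM (Ctrl). The neutrophils used as background were not left out of these cells, and otherwise no comparison above uses them. The 40 genes summed to 2503 CPM (2479 to 2528) in 1236 such cells of RSPO3-OE, of which 652 had no Ptprc UMI, and to 2724 CPM (2699 to 2749) in 1228 of Ctrl, of which 985 had none. High-sum cells made up 13.9% (11.96 to 16.1) of those deep enough to thin in RSPO3-OE and 20% (17.7 to 22.4) in Ctrl. The cell types in this mixture were not resolved.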

How the results depend on the processing

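With 1 library per group, no alternative shows how tumours of a genotype vary, and intervals cover counting error only. No paired analysis was possible because each group holds 1 library. The macrophage difference kept its direction under all 11 alternatives to its summed level, at -0.28 with doublets kept, -0.47 without barcodes of 2 classes, -0.49 with median-of-ratios scaling, -0.47 after thinning to 2000 UMIs and -0.48 without cells holding a Hmga2 UMI, an alternative chosen after seeing the data. The other 6 moved it by less than its counting error. Members at least 1.5-fold lower in macrophages were 5 with doublets kept, and 29 lay lower past a log2 ratio of 0.32. Apart from that log2 ratio of 0.32, the share of all genes was not counted under the alternatives in any class. Members below 0 there numbered 40 of 40, except 35 with doublets kept, 38 thinned and 39 under a looser class rule. The cause of the doublet effect was not tested.

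The tumour sum was 0.075 with median-of-ratios scaling, -0.051 as a mean of the cells' own CPM and -0.043 thinned. It was -0.050 without mitochondrial and ribosomal protein genes, 0.015 under a stricter class rule and -0.046 under a rule that did not use Hmga2. That rule asked for no UMI of Ptprc, C1qa, C1qb, C1qc, Cd3e or Cd3g and for under 5 of S100a8 plus S100a9. It held fewer cells than the main rule, 2760 in RSPO3-OE and 3256 in Ctrl, so it was not looser for tumour cells. Tumour members at least 1.5-fold lower were 0 with median-of-ratios scaling. Past a log2 ratio of 0.32, 4 were higher and 5 lower. The CD8 T sum was -0.11 with doublets kept and 0.037 with median-of-ratios scaling. CD8 T members higher were 1 with doublets kept, 1 by the cells' own CPM, 5 thinned, 1 under the stricter rule and 0 without a Hmga2 UMI. Those lower were 4 with doublets kept, 4 by the cells' own CPM, 8 thinned, 1 under the looser rule, 1 at a minimum of 50 UMIs, 11 past a log2 ratio of 0.32 and 4 without a Hmga2 UMI. After thinning, CD8 T Anln stood at 0.078, on the other side of 0, where few UMIs remain. The ratio of high-sum shares between the libraries stayed within its interval in all 3 classes. The shares themselves moved beyond theirs, for RSPO3-OE tumour cells from 30.3% at a sum of at least 10 to 52.7% under the stricter rule, for macrophages from 7.89% to 17.8% and for CD8 T cells from 16.4% to 33.4% at sums of at least 10 and 3. At a sum of at least 3 the ratio turned below 0 in CD8 T cells (33.4% against 34.4%) and tumour cells (48.5% against 49.7%). Under the rule that did not use Hmga2 it also did in tumour cells (34.3% against 34.5%). Of the values of single members under alternatives, 133 of 400 moved beyond their counting interval in tumour cells, 39 of 440 in macrophages and 24 of 440 in CD8 T cells.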

Other observations

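Rspo3 itself was measured in tumour cells of RSPO3-OE by how much mitosis RNA they held. It stood at 112 CPM (109.7 to 115) in the 1788 high-sum tumour cells and at 100.4 CPM (97.7 to 103) in the other 2439. At 2000 UMIs per cell, 10.2% (8.82% to 11.7%) of the high-sum cells and 8.36% (7.30% to 9.53%) of the others held a Rspo3 UMI, and these intervals overlap. In Ctrl tumour cells no Rspo3 UMI was found. The comparison is within 1 library and was added after the data had been seen.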
